A study of Mus musculus with 12 samples.

Results

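At 9 h after the aorta was narrowed, the mRNA of the calmodulin gene Calm2 had risen in both genotypes and was highest in knock-in hearts, while Calm3, which encodes the same protein, differed by less than the spread between mice. Among the genes of calcium/calmodulin-dependent protein kinase II (CaMKII), Camk2g fell in knock-in hearts and Camk2b fell in wild-type hearts. Each of these results was lost when some single mice were left out. Only the rise of Calm2 in knock-in hearts passed the test in every alternative fit. In the main fit no gene described passed the test of the interaction of genotype and surgery. None of the 4 class IIa histone deacetylase genes passed the test in any comparison. The 9 genes described are Calm2 and Calm3, Camk2b, Camk2d and Camk2g, and Hdac4, Hdac5, Hdac7 and Hdac9. They were chosen by name from a table of 13552 genes, and all 9 were among the 11240 genes tested, which reached 1 RPKM (reads scaled to exon length and to the library's total) in at least 3 mice.

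Calmodulin is the small protein through which many enzymes sense calcium. When a rise in calcium fills its binding sites, calmodulin opens CaMKII, a kinase whose subunits then phosphorylate one another and keep the enzyme active after calcium has fallen. In cardiomyocytes CaMKII phosphorylates calcium channels and sarcoplasmic reticulum proteins, and it also phosphorylates class IIa histone deacetylases, which hold MEF2 transcription factors silent in the nucleus until phosphorylation sends them to the cytoplasm. The pathway is known in the heart for its part in hypertrophic growth under pressure overload. These steps work through protein activity and location, which mRNA levels do not report.

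The mice were adult males, C57BL/6 by the labels and C57BL/6J by the methods, operated on either by transverse aortic constriction (TAC), which raises the pressure the left ventricle pumps against, or by a sham procedure, and RNA was taken from heart tissue 9 h later. Whether atria were included is not given in the sources used here, and the 4 atrial markers listed were not analysed here. Wild-type (WT) mice and mice homozygous for the Bcl-xL S14A knock-in (KI) had either surgery, with 3 in each of 4 groups. In KI mice serine 14 of Bcl-xL is replaced by alanine, so that this site cannot be phosphorylated, and the selection cassette of the targeting vector had been removed with a Cre driven by the CMV promoter. The change is in every cell, and WT mice were bought from a breeder, so genotype and source cannot be told apart. An expression table cannot show a point mutation, so the genotype labels were not checked. Mice are named by the numbers in the labels (WT sham 1, 2 and 3, WT TAC 7, 9 and 10, KI sham 1, 2 and 3, KI TAC 5, 6 and 7).

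Depth, read from the steps of low values, was 23651225 to 32455600 reads on genes per library, and the 9 genes had from 167 reads (the lowest value of Camk2b) to 17715 (the highest of Hdac5). All 5 cardiomyocyte markers were present, with a summed level of 14509 to 19520 RPKM in WT sham hearts, 12561 to 22627 in WT TAC, 15761 to 18860 in KI sham and 15308 to 21257 in KI TAC. Mice of a group correlated at a Pearson's r of 0.946 to 0.991 over genes, which are not independent of each other. Over all genes tested the log2 fold changes of KI TAC hearts had a median of −0.10 when set against KI sham and −0.12 when set against WT TAC as deposited, and of 0.03 in both after median-ratio scaling, so changes that involve KI TAC hearts are read against that shift. Median-ratio size factors were 0.816, 0.920 and 1.04 for KI TAC mice 5, 6 and 7.

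Changes were fitted with limma on log2(RPKM + 1) over all genes tested and 12 mice, and a change is called at a Benjamini-Hochberg adjusted p under 0.05. For WT TAC against WT sham 2 of the 9 genes were called, where 11.6% of all genes tested were. For KI TAC against KI sham 2 of 9 were called beside 23.3% of all genes, and for KI TAC against WT TAC 2 of 9 beside 11.0%. None was called between the sham groups, where 0.0178% of all genes were, or for the interaction of genotype and surgery, where the share was 0%. Of the 9 genes, the number whose mice did not overlap between groups was 2 for WT TAC against WT sham (35.1% of all genes), 3 for KI TAC against KI sham (38.3%), 3 for KI TAC against WT TAC (29.5%) and 0 between the sham groups (3.27%). With 9 genes, counts of 2 or 3 do not set the families apart from these shares, and the account below concerns which genes moved. With 3 mice against 3, a two-sided exact permutation test of a single gene cannot give a p below 0.1. Comparisons share groups (KI TAC mice enter 2 of them, as do WT TAC mice), so their results are set side by side and not compared.

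**Figure D1:**
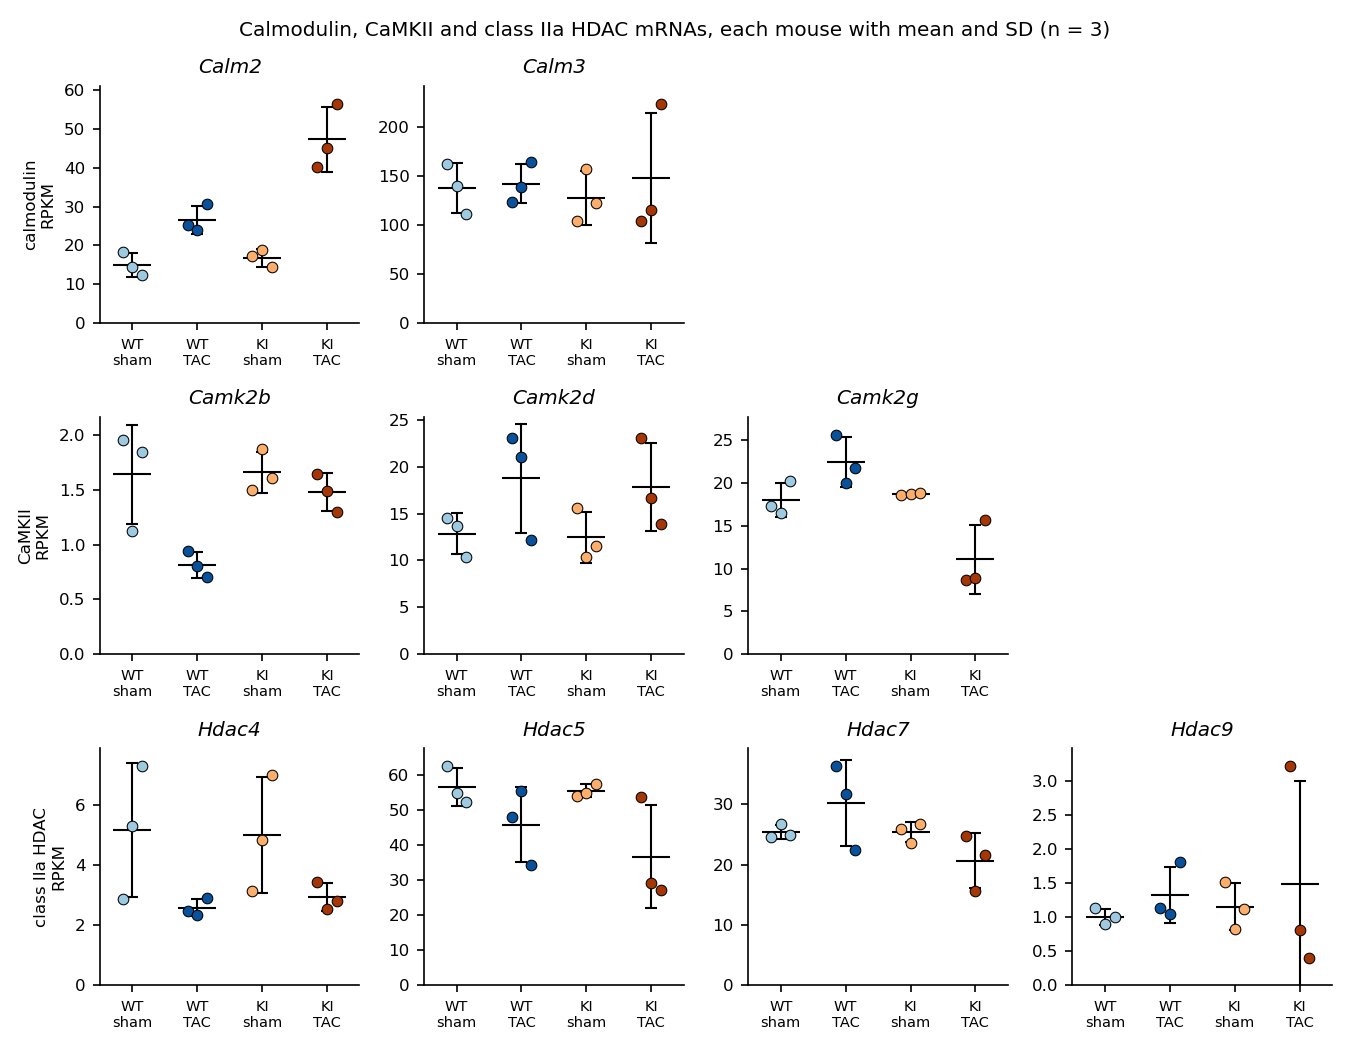
RPKM (y axis, linear from 0) of the 9 genes in the 4 groups (x axis), with each mouse as a point and bars for the mean and SD of 3 mice; the SD bar of Hdac9 in KI TAC hearts is truncated at 0. Calm2 is above all sham mice in every TAC mouse, Camk2g is lowest in the 3 KI TAC mice, and Camk2b is lowest in the 3 WT TAC mice.

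The calmodulin genes encode one protein from separate loci. Calm2 (ENSMUSG00000036438) lies on chromosome 17 from 87433412 to 87446935, minus strand, and Calm3 (ENSMUSG00000019370) on chromosome 7 from 16915379 to 16924114, minus strand, both in GRCm38. Their coding sequences of 450 bases are identical at 372 bases (82.7%) and translate to the same 149 residues. The longest stretch in which both agree base for base is 17 bases. The 75 coding bases below, positions 61 to 135 from the start codon, begin at the first calcium-binding loop and have the length of 1 read. They are shown because the contrast between Calm2 and Calm3 rests on reads telling these sequences apart, and capitals mark the 12 bases at which they differ:
Calm2: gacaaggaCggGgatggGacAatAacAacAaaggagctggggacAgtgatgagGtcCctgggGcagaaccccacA
Calm3: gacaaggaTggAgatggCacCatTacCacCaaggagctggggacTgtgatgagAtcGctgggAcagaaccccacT
Of the 75-base windows of their transcripts, 2.88% of Calm2 (shared with the annotated copies Gm15720 and Gm7308) and 1.13% of Calm3 (shared with Gm5881) occur word for word in another annotated gene. Near-identical stretches with mismatches were not counted, so the low level of Calm2 against Calm3 is uncertain to the extent that reads were lost to such copies.

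Calm2 stood at 18.3, 14.3 and 12.4 RPKM in WT sham hearts and at 25.2, 23.9 and 30.6 RPKM in WT TAC hearts. All 3 WT TAC mice were above all 3 WT sham mice. This was bulk heart tissue, in which a change in the number of cells of a type and in RNA per cell cannot be told apart. The log2 fold change was 0.79 ± 0.20 (SE, n = 3 mice per group, limma adjusted p = 0.0194), which is 1.73-fold on the log2(RPKM + 1) scale. The call was lost without WT sham mouse 2 (0.77), WT sham mouse 3 (0.67) or WT TAC mouse 7 (0.83), with limma adjusted p of 0.0707, 0.0917 and 0.0572, and over 18 alternatives of processing and mice it ranged from 0.00999 to 0.0917.

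In KI hearts Calm2 stood at 17.2, 18.7 and 14.3 RPKM after sham surgery and at 40.3, 45.0 and 56.5 RPKM after TAC. The lowest KI TAC mouse was above the highest mouse of each other group. Calm2 rose by 1.44 ± 0.20 on the log2 scale against KI sham (SE, n = 3 mice per group, limma adjusted p = 0.000292), a 2.71-fold difference, and stayed past the threshold in all 18 alternatives (adjusted p 7.34e-05 to 0.00314). Against WT TAC the log2 fold change was 0.80 ± 0.20 (limma adjusted p = 0.0238), or 1.75-fold, and with median-ratio scaling it was 1.00. That call was lost in a fit of the TAC groups alone (adjusted p = 0.0722) and without WT TAC mouse 7 (0.77, adjusted p = 0.105) or KI TAC mouse 6 (0.83, adjusted p = 0.0791), within a range of 0.00757 to 0.105. The difference between the TAC responses of the 2 genotypes, tested as the interaction, was 0.64 ± 0.28 (unadjusted p = 0.0366, limma adjusted p = 0.309) and was not called. For the interaction 14.8% of all genes tested had an unadjusted limma p under 0.05.

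Calm3 was the more abundant of the pair, at 163, 140 and 111 RPKM in WT sham, 124, 139 and 164 in WT TAC, 104, 158 and 122 in KI sham and 104, 116 and 224 in KI TAC hearts. The groups overlapped in every comparison. KI TAC mouse 7 stood above the other 11 mice. In the 4 comparisons of 2 groups the fitted log2 fold changes lay between −0.11 (KI sham against WT sham) and 0.14 (KI TAC against KI sham), each with an SE of 0.28, and the sign of each changed when single mice were left out. The interaction was 0.09 ± 0.39.

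As a share of the summed Calm2 and Calm3 level, Calm2 was 9.31% to 10.1% in WT sham hearts and 14.6% to 16.9% in WT TAC hearts. It was 10.5% to 14.2% in KI sham and 20.1% to 28.0% in KI TAC hearts. The Calm3 to Calm2 ratio, which does not depend on scaling between libraries, averaged 9.22 ± 0.45 (SD, n = 3) in WT sham, 5.38 ± 0.45 in WT TAC, 7.67 ± 1.40 in KI sham and 3.04 ± 0.80 in KI TAC hearts. No mouse of a TAC group reached the lowest ratio of the sham group of its genotype. The sum itself overlapped between all groups (mean 153 ± 28.8 RPKM in WT sham, 169 ± 23.3 in WT TAC, 145 ± 28.6 in KI sham and 195 ± 74.6 in KI TAC, SD, n = 3) and covers only these members of the family.

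**Figure D2:**
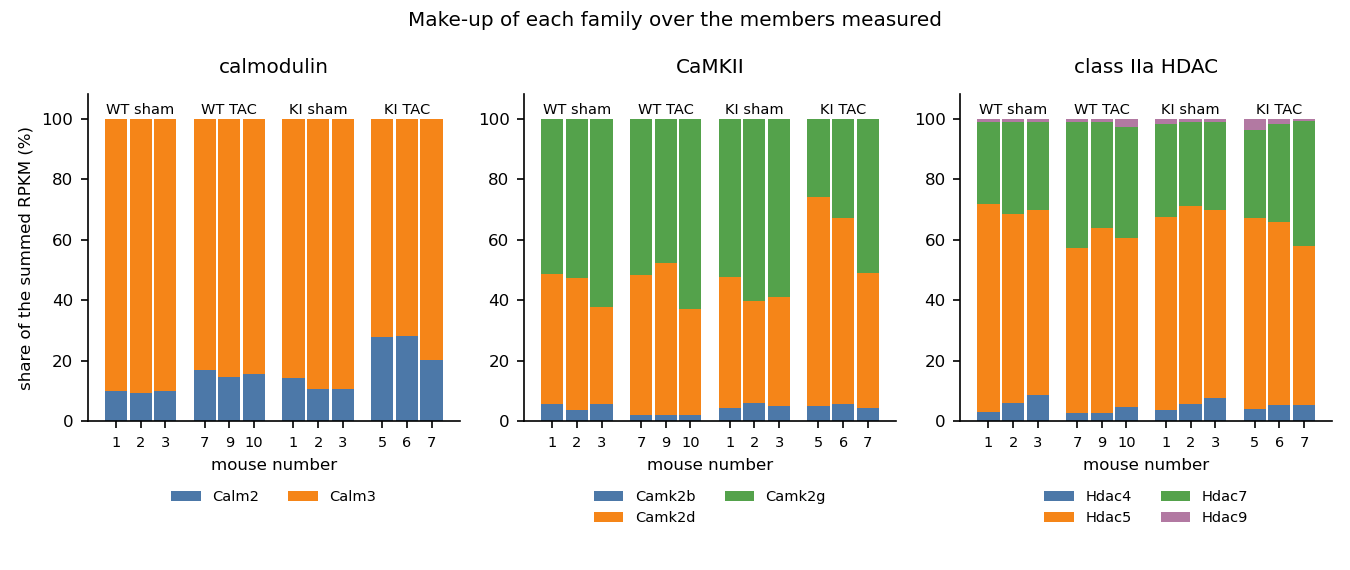
Share (y axis, % of the summed RPKM) of each gene in its family, with 1 bar per mouse (x axis, mouse number) grouped by genotype and surgery; the sums cover the 9 genes only. Calm2 takes 20.1% to 28.0% of the calmodulin sum in KI TAC hearts and 9.31% to 10.1% in WT sham hearts, and Camk2g takes 25.9% to 50.9% of the CaMKII sum in KI TAC hearts.

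CaMKII assembles from subunits encoded by separate genes, of which Camk2d (delta) is the form best known in cardiomyocytes. Camk2d (ENSMUSG00000053819, chromosome 3, 126596302 to 126846326, plus strand) was at 14.5, 13.7 and 10.4 RPKM in WT sham and 23.1, 21.02 and 12.2 RPKM in WT TAC hearts. In KI hearts it was at 15.6, 10.4 and 11.5 RPKM after sham and 23.1, 16.7 and 13.9 RPKM after TAC. In each genotype 2 of 3 TAC mice exceeded every sham mouse and the lowest TAC mouse lay within the sham range. The log2 fold changes were 0.48 ± 0.25 in WT and 0.47 ± 0.25 in KI hearts (SE, n = 3 mice per group, limma adjusted p = 0.240 and 0.194), neither called. The WT value was 0.75 without WT TAC mouse 10 (adjusted p = 0.0557) and 0.31 without WT TAC mouse 7 (0.564), the extremes of its alternatives. The KI value was 0.28 without KI TAC mouse 5 (0.493, within a range of 0.114 to 0.493). An annotated gene, Gm15551, lies on the opposite strand within this locus, and the strand setting of the counting was not given in the sources used here.

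Camk2g (gamma; ENSMUSG00000021820, chromosome 14, 20734875 to 20794088, minus strand) was at 17.4, 16.5 and 20.3 RPKM in WT sham and 25.7, 19.98 and 21.8 RPKM in WT TAC hearts. In KI hearts it was at 18.6, 18.7 and 18.8 RPKM after sham and at 8.65, 8.91 and 15.7 RPKM after TAC. All 3 KI TAC mice were below all other mice, and KI TAC mouse 7 lay closest to them. In WT hearts the groups overlapped and the log2 fold change of 0.30 ± 0.21 was not called (limma adjusted p = 0.367).

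Camk2g fell by 0.75 on the log2 scale in KI TAC against KI sham hearts (SE 0.21, n = 3 mice per group, limma adjusted p = 0.0193), a 1.69-fold difference, and by 0.60 with median-ratio scaling. On leaving out KI sham 3, KI TAC 5 or KI TAC 6 the log2 fold change was −0.75, −0.62 and −0.63 and no longer called (adjusted p = 0.0636, 0.0756 and 0.0761, within a range of 0.00155 to 0.0761). Against WT TAC hearts it was −0.998 ± 0.21 (limma adjusted p = 0.0130), or 2-fold lower, and −0.82 with median-ratio scaling. This call was lost in a fit of the TAC groups alone (adjusted p = 0.0673) and without WT TAC mouse 7 (−0.90, 0.0806) or KI TAC mouse 6 (−0.88, 0.0694), within a range of 0.00191 to 0.0806. The interaction was −1.05 ± 0.29 (unadjusted p = 0.00304, limma adjusted p = 0.157), not called among all genes, and it passed without KI TAC mouse 7 (−1.31, adjusted p = 0.0255, within a range of 0.0255 to 0.410).

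The Camk2d to Camk2g ratio was 0.512 to 0.835 in WT sham, 0.559 to 1.05 in WT TAC and 0.556 to 0.835 in KI sham hearts. It was 2.66, 1.87 and 0.882 in KI TAC mice 5, 6 and 7, so that Camk2d had the higher RPKM of the pair in 2 of the 3 and the third lay inside the WT TAC range. Which of the pair is higher depends on the exon length used, 22493 bases for Camk2d and 6401 for Camk2g from the annotation. Camk2d had more reads than Camk2g in every mouse (9831 against 3173 in KI TAC mouse 7). The summed level of the CaMKII genes measured was 32.5 ± 1.26 RPKM in WT sham, 42.1 ± 7.57 in WT TAC, 32.9 ± 2.50 in KI sham and 30.4 ± 3.15 in KI TAC hearts (SD, n = 3).

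Camk2b (beta; ENSMUSG00000057897, chromosome 11, 5969644 to 6066362, minus strand) was the least abundant CaMKII gene measured. It was at 1.96, 1.13 and 1.85 RPKM in WT sham and 0.942, 0.803 and 0.701 RPKM in WT TAC hearts, at 1.502, 1.87 and 1.61 RPKM in KI sham and 1.65, 1.49 and 1.30 RPKM in KI TAC hearts. All 3 WT TAC mice were below all 9 other mice. Camk2b fell by 0.53 on the log2 scale in WT TAC against WT sham hearts (SE 0.14, n = 3 mice per group, limma adjusted p = 0.0298), a 1.44-fold difference that the added 1 RPKM makes smaller at this level. In KI hearts the groups overlapped and the value was −0.10 ± 0.14 (limma adjusted p = 0.643).

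The WT call for Camk2b was lost in a fit of the WT groups alone (adjusted p = 0.0646) and without WT sham mouse 1 (−0.44, 0.109) or 3 (−0.47, 0.117) or WT TAC mouse 7 (−0.58, 0.0654), 9 (−0.53, 0.0682) or 10 (−0.48, 0.0631), within a range of 0.0183 to 0.117. Camk2b was at a higher level in the KI TAC mice than in the WT TAC mice, without overlap, with a log2 fold change of 0.45 ± 0.14 (limma adjusted p = 0.0586) that was not called. It passed with a pseudocount of 0.1 (0.79, adjusted p = 0.0470), quantile normalization (0.60, 0.0343), median-ratio scaling (0.56, 0.0339) and limma-voom on recovered reads (0.86, 0.0383), within a range of 0.0339 to 0.162. The interaction for Camk2b was 0.43 ± 0.20 (limma adjusted p = 0.345) and was not called.

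The promoter window of Camk2b, 300 bases around the start site, is shown because this gene was called and has an entry in the RefSeq set (GRCm38.p6, chr11:6065699-6065998, minus strand), which matched 7 of the 9 genes. G and C make up 77.3% of it, and it holds no match on either strand to the 4 motifs searched, MEF2, AP-1 (TGANTCA), the cyclic AMP response element (TGACGTCA) and the NFAT core (GGAAA):
Camk2b: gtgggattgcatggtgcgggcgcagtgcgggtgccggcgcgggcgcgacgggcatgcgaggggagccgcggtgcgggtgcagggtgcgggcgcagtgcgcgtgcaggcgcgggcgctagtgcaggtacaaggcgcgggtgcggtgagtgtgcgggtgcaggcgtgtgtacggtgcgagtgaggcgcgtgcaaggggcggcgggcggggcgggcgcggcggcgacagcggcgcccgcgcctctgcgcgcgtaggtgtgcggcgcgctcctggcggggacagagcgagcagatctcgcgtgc
All 11 windows of the 7 genes were searched for them. Of 32851 promoter windows of the same length, 3.19% hold a MEF2 match, 7.81% an AP-1 match, 1.79% a cyclic AMP response element and 61.3% an NFAT core.

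**Figure D3:**
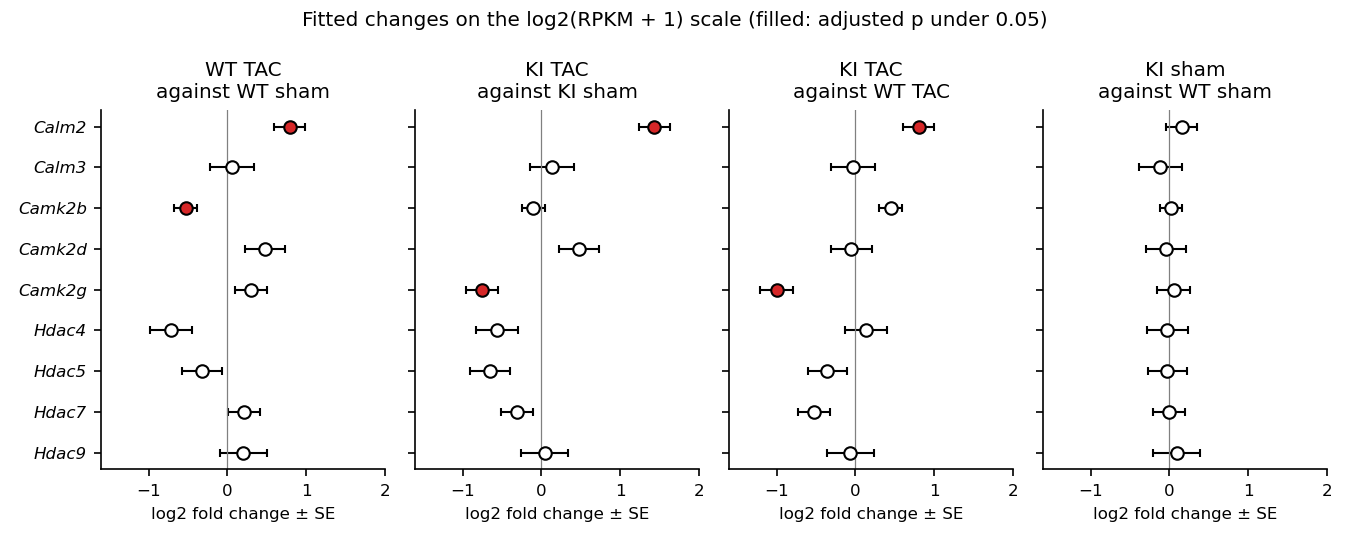
Fitted log2 fold change (x axis, log2(RPKM + 1) scale) with its SE for the 9 genes (y axis) in the 4 comparisons of 2 groups, filled where the limma adjusted p is under 0.05. Calm2 is to the right in all 3 comparisons with TAC hearts, at 0.79, 1.44 and 0.80, Camk2g is to the left in both that hold KI TAC hearts, and the values between the sham groups lie from −0.11 to 0.16.

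Class IIa histone deacetylases have little deacetylase activity of their own and act as signal-driven repressors of MEF2. Hdac5 (ENSMUSG00000008855, chromosome 11, 102194432 to 102230166, minus strand), a target of CaMKII and protein kinase D signalling, was the most abundant of the 4. It was at 62.8, 55.0 and 52.3 RPKM in WT sham and 48.0, 55.4 and 34.3 RPKM in WT TAC hearts, at 54.1, 54.9 and 57.6 RPKM in KI sham and 53.7, 29.1 and 27.3 RPKM in KI TAC hearts. In KI hearts the groups did not overlap, but KI TAC mouse 5 lay just below the sham mice while mice 6 and 7 stood lower. The log2 fold change in KI hearts was −0.65 ± 0.25 (SE, n = 3 mice per group, limma adjusted p = 0.0722), and without KI TAC mouse 5 it was −0.95 and called (adjusted p = 0.00936, within a range of 0.00936 to 0.255). With median-ratio scaling it was −0.49 and the groups overlapped. In WT hearts it was −0.32 ± 0.25 (limma adjusted p = 0.422).

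The Hdac5 promoter window (RefSeq, GRCm38.p6, chr11:102230123-102230422, minus strand) is shown because it was the only one of the 11 windows that holds a match to MEF2, the factor that these proteins hold silent. Capitals mark the match, which starts 20 bases before the start site and overlaps no match to the other words:
Hdac5: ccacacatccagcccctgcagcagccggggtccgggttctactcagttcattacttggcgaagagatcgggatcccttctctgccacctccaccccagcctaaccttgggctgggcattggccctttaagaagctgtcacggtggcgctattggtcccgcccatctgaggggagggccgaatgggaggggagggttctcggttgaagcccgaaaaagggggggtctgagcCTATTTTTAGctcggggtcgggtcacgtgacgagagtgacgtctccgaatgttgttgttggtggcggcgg
A match to letters is a description of this window and not a bound site. An AP-1 match was found in 1 of the 4 windows of Hdac7 and 1 of the 2 windows of Hdac9. The NFAT core was matched in 7 of the 11 windows, namely those of Calm3 and Camk2d, 3 of Hdac7 and both of Hdac9, beside 61.3% of all promoter windows.

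Hdac7 (ENSMUSG00000022475, chromosome 15, 97792664 to 97844502, minus strand), known for its part in endothelial cells, was at 24.6, 26.7 and 24.9 RPKM in WT sham and 36.5, 31.7 and 22.5 RPKM in WT TAC hearts. In KI hearts it was at 25.9, 23.7 and 26.7 RPKM after sham and 24.7, 15.6 and 21.6 RPKM after TAC. The groups overlapped in every comparison. Hdac7 was nominally lower after TAC in KI than in WT hearts (log2 fold change −0.53 ± 0.21, SE, n = 3 mice per group, unadjusted p = 0.0233, limma adjusted p = 0.107) and was not called. In this comparison 30.3% of all genes tested had an unadjusted limma p under 0.05. All 5 endothelial markers were detected, with summed levels of 238 to 322 RPKM in WT sham, 225 to 277 in WT TAC, 241 to 307 in KI sham and 236 to 260 in KI TAC hearts, which overlapped. The locus overlaps Slc48a1 on the opposite strand.

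Hdac4 (ENSMUSG00000026313, chromosome 1, 91928779 to 92195699, minus strand), which CaMKII binds directly, was at 2.86, 5.28 and 7.30 RPKM in WT sham and 2.48, 2.34 and 2.88 RPKM in WT TAC hearts. In KI hearts it was at 3.14, 4.81 and 6.99 RPKM after sham and 3.44, 2.52 and 2.79 RPKM after TAC. The sham mice of both genotypes were spread more than 2-fold, and the lowest of each sham group lay inside the TAC range. With median-ratio scaling the WT groups did not overlap. The log2 fold change was −0.72 ± 0.27 in WT (SE, n = 3 mice per group, unadjusted p = 0.0170, limma adjusted p = 0.0952) and −0.56 ± 0.27 in KI hearts (limma adjusted p = 0.139). For WT TAC against WT sham 27.9% of all genes tested had an unadjusted limma p under 0.05. Without WT sham mouse 1 the WT value was −1.02 and called (adjusted p = 0.0239, within a range of 0.0239 to 0.313). Without WT sham mouse 3 it was −0.47 (adjusted p = 0.313). The KI value was −0.33 without KI sham mouse 3 (adjusted p = 0.459) and −0.81 without KI sham mouse 1 (0.0536), the extremes of its alternatives. Gm26720 is annotated on the opposite strand of this locus.

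Hdac9 (ENSMUSG00000004698, chromosome 12, 34047580 to 34917095, minus strand), whose shorter product lacks the catalytic domain and still represses MEF2, was at 1.13, 0.892 and 0.993 RPKM in WT sham and 1.13, 1.04 and 1.80 RPKM in WT TAC hearts. In KI hearts it was at 1.51, 0.828 and 1.12 RPKM after sham and 3.22, 0.804 and 0.404 RPKM after TAC. KI TAC mouse 5 was the highest and mouse 7 the lowest of all 12 mice. The WT groups overlapped as deposited and did not with median-ratio scaling. No comparison was called. In the 4 comparisons of 2 groups the log2 fold changes lay between −0.06 and 0.20 with an SE of 0.30, and the interaction was −0.16 ± 0.42.

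Within the class IIa sum, Hdac5 took 61.2% to 68.7% in WT sham, 54.5% to 61.3% in WT TAC, 62.3% to 65.2% in KI sham and 52.5% to 63.2% in KI TAC hearts. The Hdac5 to Hdac7 ratio was 2.06 to 2.56 in WT sham and 1.32 to 1.75 in WT TAC hearts, which did not overlap. In KI hearts it was 2.09 to 2.32 after sham and 1.27 to 2.18 after TAC, which did. The order of levels was the same in the group means of all 4 groups, with Hdac5 above Hdac7, Hdac7 above Hdac4 and Hdac4 above Hdac9. Hdac4 and Hdac9 overlapped in KI TAC hearts, where Hdac9 reached 3.22 RPKM.

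Between the sham groups the log2 fold changes of the 9 genes lay between −0.11 (Calm3) and 0.16 (Calm2), none with an unadjusted p under 0.05, where 0.329% of all genes had one, and the limma adjusted p was 1.00 for each. All 9 overlapped. The 5 macrophage markers summed to 79.9 to 133 RPKM in WT sham and 147 to 224 RPKM in WT TAC hearts, without overlap, and to 86.6 to 109 RPKM in KI sham and 99.3 to 126 RPKM in KI TAC hearts. The 5 fibroblast markers summed to 104 to 156 RPKM in WT sham, 126 to 549 in WT TAC, 123 to 205 in KI sham and 85.3 to 155 in KI TAC hearts. Of 5 neutrophil markers, 3 were analysed here, at 0.508 to 1.27 RPKM in WT sham, 3.69 to 9.87 in WT TAC, 0.395 to 0.505 in KI sham and 4.18 to 20.3 in KI TAC hearts. Their sum was higher after TAC than after sham surgery in both genotypes, without overlap. The 5 red cell markers summed to 145 to 171 RPKM in WT sham and 74.8 to 114 RPKM in WT TAC hearts, without overlap, and to 134 to 244 RPKM in KI sham and 97.7 to 257 RPKM in KI TAC hearts. The 5 smooth muscle markers summed to 100.3 to 111 RPKM in WT sham and 114 to 214 RPKM in WT TAC hearts, also without overlap, and to 85.5 to 144 RPKM in KI sham and 98.9 to 153 RPKM in KI TAC hearts. The 1 skeletal muscle marker analysed of 5 was at 1.36 to 4.10 RPKM in WT sham, 4.29 to 9.58 in WT TAC, 2.29 to 3.61 in KI sham and 2.32 to 6.88 in KI TAC hearts. The 2 neuron markers analysed of 5 summed to 0.921 to 1.24 RPKM in WT sham, 1.34 to 12.8 in WT TAC, 1.17 to 1.73 in KI sham and 0.823 to 3.04 in KI TAC hearts. For both of these lists the WT groups did not overlap and the KI groups did. None of the markers analysed was at 0 in all mice, and the part of these cells in the changes of Calm2, Camk2b and Camk2g was not tested.

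Genes that act with the 3 families were counted from lists written from general knowledge. Earlier results of these data were known when the lists were chosen, so the counts are a description and not independent of the data. Of all genes tested, 6.96% were called higher and 4.60% lower in WT TAC against WT sham, 8.57% higher and 14.7% lower in KI TAC against KI sham, and 2.92% higher and 8.13% lower in KI TAC against WT TAC. Of 9 kinases of class IIa deacetylases, 1 rose in WT TAC hearts and the same gene was lower after TAC in KI than in WT hearts, namely Grk5, a G protein-coupled receptor kinase known to phosphorylate HDAC5 in cardiomyocytes. Grk5 was at 5.93, 6.11 and 5.12 RPKM in WT sham, 13.1, 16.7 and 12.4 in WT TAC, 6.85, 3.94 and 4.89 in KI sham and 6.10, 4.31 and 5.27 in KI TAC hearts. The WT TAC mice stood above all 9 others. The log2 fold change was 1.16 ± 0.19 in WT hearts (SE, n = 3 mice per group, limma adjusted p = 0.00263) and −1.28 ± 0.19 for KI TAC against WT TAC (limma adjusted p = 0.00461), both called in all 18 alternatives. The interaction was −1.14 ± 0.27 (limma adjusted p = 0.124) and was not called.

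Of 4 calmodulin-binding modulators and CaMKII inhibitors tested, Nrgn, which encodes a protein that holds calcium-free calmodulin, fell in WT TAC hearts (log2 fold change −0.59 ± 0.17, limma adjusted p = 0.0344) and was higher after TAC in KI than in WT hearts (0.89 ± 0.17, adjusted p = 0.00834). It averaged 3.66 ± 0.765 RPKM in WT sham, 2.07 ± 0.164 in WT TAC, 3.87 ± 0.707 in KI sham and 4.73 ± 0.730 in KI TAC hearts (SD, n = 3). The WT call was lost with limma-voom and without WT sham mouse 2 or 3 or WT TAC mouse 7 or 9 (log2 fold changes of −0.79, −0.46, −0.64, −0.61 and −0.55), and the other without KI TAC mouse 6 (0.80, adjusted p = 0.05004).

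Of 4 other CaM kinase genes tested, Camkk2, a kinase upstream of other CaM kinases, rose in WT TAC hearts (0.75 ± 0.19, limma adjusted p = 0.0201) and was lower after TAC in KI than in WT hearts (−0.70 ± 0.19, adjusted p = 0.0310). Pnck fell in both genotypes (−0.90 in WT, adjusted p = 0.0128, and −0.65 in KI, adjusted p = 0.0368), and Camkk1 was lower after TAC in KI than in WT hearts (−0.60, adjusted p = 0.0332). Each of these calls was lost under some alternatives. Between the TAC groups, Camkk2 lost it with median-ratio scaling (−0.55, adjusted p = 0.0871), quantile normalization (−0.55, 0.0819) and a fit of those groups alone (0.0938). Camkk1 lost it with quantile normalization (−0.44, 0.0549) and a fit of those groups alone (0.103). In KI hearts Pnck lost it with median-ratio scaling (−0.52, adjusted p = 0.0649), quantile normalization (−0.53, 0.0664) and a fit of the KI groups alone (0.0527). Leaving out single mice also ended them. For Camkk2 the mice were WT sham 1 or 2 or WT TAC 7 or 9 in WT hearts (log2 fold change 0.61 to 0.76, adjusted p up to 0.0794). Between the TAC groups they were WT TAC 7 or 9 or KI TAC 5 or 6 (−0.67 to −0.56, adjusted p up to 0.126). For Pnck it was WT sham 1 in WT hearts (−0.76, adjusted p = 0.0521), and in KI hearts WT sham 3, KI sham 2 or 3 or any KI TAC mouse (−0.72 to −0.46, adjusted p up to 0.138). For Camkk1 the mice were WT TAC 7 or 10, KI sham 3 or KI TAC 5 or 6 (−0.60 to −0.48, adjusted p up to 0.159).

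**Figure D4:**
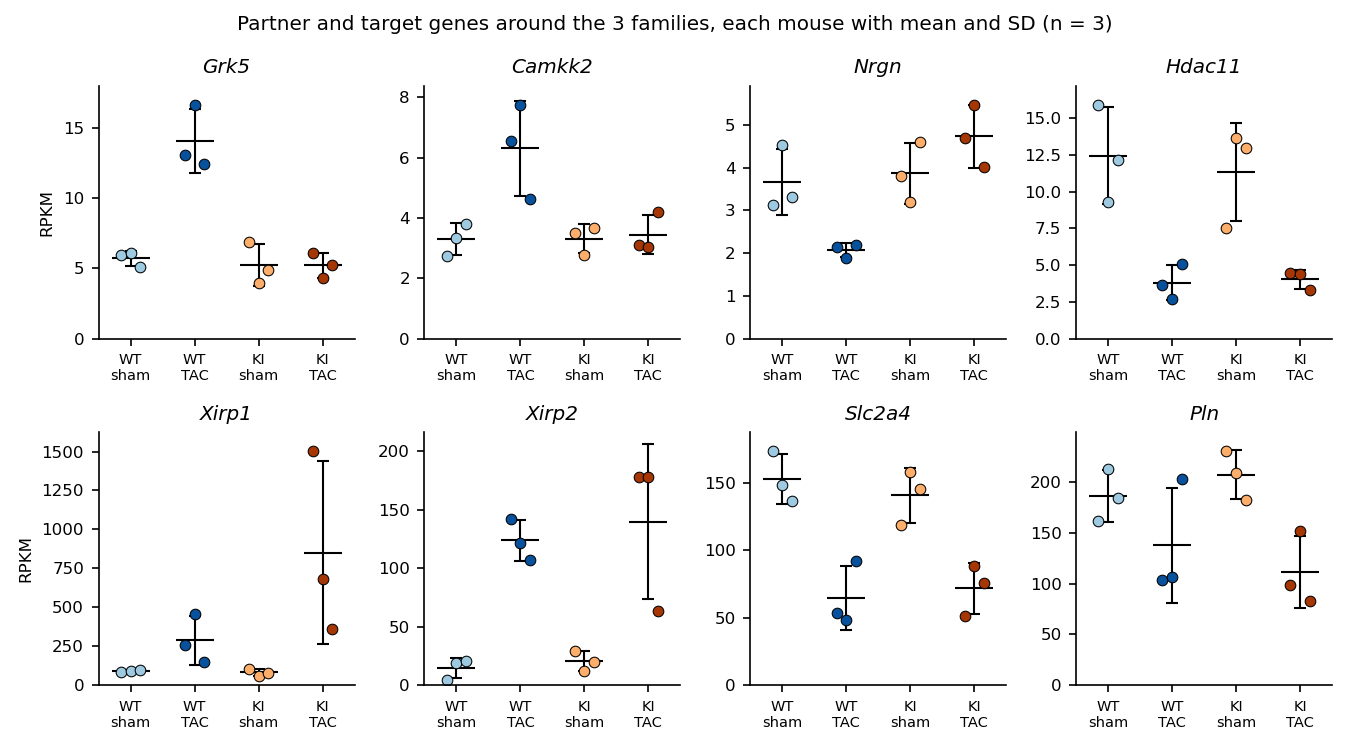
RPKM (y axis, linear from 0) of 8 genes that act with or below the 3 families in the 4 groups (x axis), with each mouse as a point and bars for the mean and SD of 3 mice. Grk5 is above 12 RPKM in the WT TAC mice and below 7 RPKM in all others, Hdac11 is at or below 5.07 RPKM in every TAC mouse, and Xirp1 reaches 1502 RPKM in a KI TAC mouse.

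Of 11 genes known to be driven by MEF2, 2 rose and 3 fell in WT TAC against WT sham, 2 rose and 2 fell in KI TAC against KI sham, and 2 were higher after TAC in KI than in WT hearts. Xirp2, which encodes an actin-binding protein of the intercalated disc, rose from 4.65, 18.9 and 20.3 RPKM in WT sham to 142, 122 and 107 RPKM in WT TAC hearts, and from 29.3, 12.3 and 19.3 RPKM in KI sham to 178, 178 and 63.5 RPKM in KI TAC hearts. The TAC mice were above the sham mice of both genotypes without overlap. The log2 fold changes were 3.21 ± 0.49 in WT and 2.66 ± 0.49 in KI hearts (SE, n = 3 mice per group, limma adjusted p = 0.00137 and 0.00199). The related Xirp1 rose in KI hearts (3.17 ± 0.45, adjusted p = 0.000413), where it was at 1502, 683 and 362 RPKM after TAC, and in WT hearts (1.497 ± 0.45, adjusted p = 0.0480), a call lost in 10 of 18 alternatives, among them median-ratio scaling (1.45, adjusted p = 0.0926) and the fit without WT TAC mouse 9 (1.09, adjusted p = 0.166). The other single mice whose absence ended it were WT sham 1, 2 and 3, WT TAC 7, KI sham 2 and 3 and KI TAC 6 (1.45 to 1.55).

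Slc2a4, the insulin-regulated glucose transporter, fell in WT (−1.28 ± 0.26, limma adjusted p = 0.00753) and in KI hearts (−0.99 ± 0.26, adjusted p = 0.0155), where the call was lost on leaving out KI sham 2, KI sham 3 or KI TAC 5 (−0.90, −0.96 and −0.77). Ppargc1a, a coactivator of mitochondrial genes, fell in KI hearts (−1.49 ± 0.32, adjusted p = 0.00518). The other genes that fell in WT TAC hearts were Ckm, the muscle creatine kinase, and Hrc, a calcium-binding protein of the sarcoplasmic reticulum, named after their values were seen. They fell by 1.05 and 1.20 on the log2 scale in WT hearts (limma adjusted p = 0.0134 and 0.00383) and were the ones higher after TAC in KI than in WT hearts (1.14 and 0.96, adjusted p = 0.0141 and 0.0188). So members of one list moved in both directions.

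Of 5 CaMKII substrates at the membrane and sarcoplasmic reticulum, 3 fell in KI TAC hearts and none was called in WT hearts. They were Pln, which encodes phospholamban, a brake on the calcium pump (−0.93 ± 0.28, limma adjusted p = 0.0281), Cacna1c, the pore of the L-type calcium channel (−0.78 ± 0.21, adjusted p = 0.0181), and its subunit gene Cacnb2 (−0.93 ± 0.31, adjusted p = 0.0419). With median-ratio scaling Pln was at −0.76 (adjusted p = 0.0629) and Cacna1c at −0.62 (adjusted p = 0.0597) and neither was called. All 3 also lost the call without KI sham mouse 1 or 3 (adjusted p 0.0555 to 0.119). Pln also lost it without KI sham 2, KI TAC 5 or KI TAC 7 (−0.92, −0.87 and −0.74). Cacnb2 lost it without WT sham 2 or 3, WT TAC 7, KI sham 2 or KI TAC 5 or 6 (−1.04 to −0.63) and in a fit of the KI groups alone (adjusted p = 0.0563). Cacnb2 was the one substrate called lower after TAC in KI than in WT hearts (−1.05 ± 0.31, adjusted p = 0.0425), a call lost in 9 of 18 alternatives, of which 7 left out a mouse (WT sham 2 or 3, WT TAC 7 or 10, KI sham 3, KI TAC 5 or 6, −1.16 to −0.75). The difference between the genotypes in the response of these genes was not called (interaction adjusted p 0.271 to 0.610).

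Of 7 transcription factors held by class IIa deacetylases, none was called in WT TAC against WT sham. Camta2 fell in KI TAC against KI sham hearts (−0.64 ± 0.18, limma adjusted p = 0.0204, with 0.0536 after median-ratio scaling and 0.0569 in a fit of the KI groups alone), a call also lost on leaving out KI sham 3, KI TAC 5 or KI TAC 6 (adjusted p up to 0.0896). Camta1 was lower after TAC in KI than in WT hearts (−0.79 ± 0.20, adjusted p = 0.0259, and lost in a fit of the TAC groups alone, with 0.0871, and on leaving out WT TAC 7, WT TAC 10 or KI TAC 5, at −0.80, −0.73 and −0.56, with adjusted p up to 0.101). Of 6 other histone deacetylase genes tested, Hdac11, which forms a class of its own, fell in both genotypes, by 1.49 in WT and 1.26 in KI hearts (SE 0.25, limma adjusted p = 0.00267 and 0.00323), in all 18 alternatives. It was at 15.9, 9.28 and 12.2 RPKM in WT sham, 3.64, 2.69 and 5.07 in WT TAC, 7.54, 13.6 and 13.0 in KI sham and 4.48, 4.37 and 3.29 in KI TAC hearts, without overlap between surgeries. None of the 7 Ywha and Sfn adaptor genes, whose proteins hold phosphorylated class IIa deacetylases in the cytoplasm, and none of the 6 co-repressor partners was called in any comparison.

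By Pearson's r of log2(RPKM + 1) over the 12 mice, the genes whose pattern was most like that of Calm2 were Arf2, Cmpk1 and Snhg6 (r = 0.98, 0.98 and 0.97). Arf2, which encodes a small GTPase of vesicle transport, averaged 5.11 RPKM in WT sham, 7.52 in WT TAC, 5.45 in KI sham and 12.9 in KI TAC hearts. Those most like Camk2g were Cbx6, Osbpl7 and Zfp710 (r = 0.97 for each), and Cbx6, a Polycomb protein gene, averaged 4.46, 5.49, 5.20 and 2.96 RPKM in the same order. For Camk2b they were Doc2g, Ckm and Eno3 (r = 0.91, 0.90 and 0.90), and Eno3, the muscle enolase, averaged 466, 212, 475 and 408 RPKM. The 12 points share groups and scaling, and these values are a description with no test.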

How the data were processed

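Total RNA from 12 mouse hearts was poly(A) selected and sequenced as single reads by the authors, who trimmed reads with Trimmomatic 0.39, aligned them to GRCm38 with HISAT2 2.2.1 and counted them with HTSeq 0.6.1. edgeR 3.18.1, limma 3.32.10 and R 4.1.1 are also listed in the submitters' processing notes. The library was strand-specific. The methods name Ensembl annotation of GRCm38, with a release number that differs from the one in the file names they give, and the strand setting of the counting is not given in the sources used here. The deposited values are RPKM for 13552 genes, with no counts. The unit was read from the values, whose low steps gave whole reads and so each library's depth. RPKM holds a total fixed per library, so a change in abundant genes shifts all others.

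Since the table held RPKM, limma 3.58.1 (R 4.3.3, trend) was fitted to log2(RPKM + 1) for 11240 genes with at least 1 RPKM in at least 3 mice, over 4 groups, with Benjamini-Hochberg adjustment over all genes tested. Contrasts were TAC against sham in each genotype, KI against WT in each surgery, and the interaction. The labels number the mice. In the main fit the spread between mice was estimated for each gene over all 4 groups together, with 3 hearts per group. It was then moderated by limma, that is, drawn towards the spread of genes of similar level. The SE of a gene was therefore the same in the 4 comparisons of 2 groups (0.1967 for Calm2). The p-values rest on this shared spread and not on the compared groups alone. Leaving out a mouse can thus change the p-value of a comparison that does not hold its group. Alternatives were a pseudocount of 0.1, no filter, quantile normalization, median-ratio scaling, fits of 2 groups, limma-voom on recovered reads, leaving out each mouse, and a replicate block for the sham mice. The fit was run on simulated reads with known changes in WT TAC only, the same dispersion for every gene and no shift between libraries. That run checks the code and not the calls made here. The members and lists were chosen with earlier results of these data known. Pathway genes named were at most 4 a list, those past the threshold with the largest change, apart from Ckm and Hrc, which were added after their values were seen, and the 3 genes with the highest r to each called member, predicted genes passed over. Gene positions came from GENCODE annotation of GRCm38 and promoters from RefSeq. Tables and plots used Python 3.11.15, numpy 2.4.6, pandas 2.3.3 and matplotlib 3.10.9. Some genes of these families are not reported here.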

Additional observations from a re-analysis of the deposited data

How the results depend on the processing

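With 3 mice per group, leaving out 1 mouse or fitting only the groups compared moved most calls among the 9 genes. The rise of Calm2 in KI hearts passed in all 18 alternatives. In fits of only the groups compared, 1 gene was called for the WT comparison of surgeries and 0 between the TAC groups, and over all genes the latter gave 216 calls against 1242. Leaving out single mice also moved the calls over all genes. They ran from 162 (without WT TAC 7) to 1822 (without KI TAC 7) between the TAC groups. They ran from 596 to 1525 for WT TAC against WT sham (1299 in the main fit) and from 1453 to 2981 for KI TAC against KI sham (2620). Without single mice, 0 to 2 of the 9 were called for WT TAC against WT sham, 1 to 2 in the KI comparison of surgeries, 0 to 2 between the TAC groups and 0 to 1 for the interaction. With median-ratio scaling 4 genes did not overlap for WT TAC against WT sham, namely Calm2, Camk2b, Hdac4 and Hdac9. The cause was not tested. With a replicate block for the 6 sham mice, 0 of the 9 genes were called. After each gene's group mean was taken out, same-numbered sham mice of the 2 genotypes correlated at −0.22, −0.30 and 0.44. Pairs with different numbers ranged from −0.35 to 0.43. With 3 mice per group these values cannot settle whether the numbers pair mice.

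Some uncalled values changed sign. For KI TAC against KI sham, Camk2b was 0.0087 with quantile normalization and 0.0048 with median-ratio scaling, and Hdac9 was −0.0886 with a pseudocount of 0.1 and −0.14 with limma-voom. For KI TAC against WT TAC, quantile normalization gave 0.0374 for Camk2d and 0.12 for Hdac9, and median-ratio scaling 0.17 for Calm3, 0.14 for Camk2d and 0.0752 for Hdac9. Median-ratio scaling gave −0.0122 for Hdac7 between the sham groups. In the interaction, quantile normalization gave −0.0373 for Calm3, 0.0806 for Camk2d and 0.0424 for Hdac9, and Camk2d was 0.0002 with a pseudocount of 0.1 and 0.20 with median-ratio scaling. Without single mice, log2 fold changes ranged for WT TAC against WT sham from −0.0903 to 0.18 (Calm3), for KI TAC against KI sham from −0.20 to 0.35 (Calm3) and −0.42 to 0.37 (Hdac9), and between the TAC groups from −0.37 to 0.19 (Calm3), −0.32 to 0.12 (Camk2d) and −0.53 to 0.26 (Hdac9). Between the sham groups they ranged from −0.27 to 0.0282 (Calm3), −0.13 to 0.11 (Camk2b), −0.20 to 0.0668 (Camk2d), −0.0039 to 0.14 (Camk2g), −0.32 to 0.23 (Hdac4), −0.0804 to 0.0489 (Hdac5), −0.0349 to 0.05 (Hdac7) and −0.0239 to 0.20 (Hdac9). In the interaction they ranged from −0.26 to 0.30 (Calm3), −0.27 to 0.16 (Camk2d), −0.10 to 0.46 (Hdac4) and −0.62 to 0.17 (Hdac9). Camk2b and Hdac9 lay near 1 RPKM, where the pseudocount weighs most.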
